A study of Mus musculus with 2 samples.

Results

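The CD209 lectin family genes Cd209a, Cd209b, Cd209d, Cd209f and Cd209g were examined by their symbols in the gene list of both libraries. They are 5 of the 7 genes with a CD209 name among 27998 genes listed, and the other two, Cd209c and Cd209e, had few counts and are given at the end. The data are single-cell RNA sequencing of the stromal vascular fraction of epididymal fat, the cells left when adipocytes are removed from dissociated tissue. There was 1 library from C57BL/6 (C57BL/6J in the study's methods) male mice on low-fat diet (LFD) and 1 from mice on high-fat diet (HFD), with both diets given for 24 wk from an age of 6 wk. The diets are those of each sample's treatment label, while the protocol text shared by both samples names low-fat diet for each. Neither group carried a transgene or a deletion, and how many mice were pooled per library is not given in the sources used here. With 1 library per diet no test between diets is possible, and every interval below covers counting error only.

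CD209 proteins are C-type lectins, receptors on the surface of macrophages and dendritic cells that bind mannose- and fucose-rich sugars through a calcium-dependent carbohydrate recognition domain. The human gene encodes DC-SIGN, and in the mouse the family has expanded into a cluster of related genes. Cd209a is the mouse gene most often called DC-SIGN and is known from dendritic cells of monocyte type, whereas Cd209b (SIGNR1) is known from macrophages that take up bacterial polysaccharides and Cd209d encodes SIGNR3.

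The 7 CD209 genes lie on chromosome 8 of GRCm38 between 3743397 and 4137707, a span of 394 kb, and 6 of them are on the minus strand. Cd209g alone is on the plus strand, beside Cd209f. By gene ID the members are Cd209a (ENSMUSG00000031494, 3743397 to 3748984), Cd209d (ENSMUSG00000031495, 3871824 to 3878555), Cd209b (ENSMUSG00000065987, 3917655 to 3926844), Cd209f (ENSMUSG00000051906, 4102787 to 4105835) and Cd209g (ENSMUSG00000079168, 4134098 to 4137707). In the longest coding transcripts, Cd209f and Cd209g were 91.5% identical over 1164 aligned bases, with a longest identical run of 416 bases, whereas the other pairs of family members shared runs of at most 26 bases. The windows around their start sites, 250 bases before and 50 after, were 91.8% identical over 281 aligned bases. No stretch of 50 bases in the last 500 bases of any CD209 transcript was found in another CD209 transcript, while Cd209f and Cd209g were 84.3% identical over 479 aligned bases there. Reads were not analysed here, so counts of Cd209f and Cd209g carry an untested uncertainty about how reads were split between them.

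The bases before the coding transcripts of Cd209f and Cd209g are shown because these genes were also the most alike from cell to cell (below). They were taken from RefSeq (GRCm38.p6), read 5′ to 3′ on the strand of the gene, and capitals mark the longest run shared by both, 83 bases. The Cd209f stretch is chr8:4105836-4106014 on the minus strand and the Cd209g stretch is chr8:4134486-4134651 on the plus strand. Each ends at the base before the start of the coding transcript. The full windows around the start sites run past that base, and their longest shared run was 180 bases. For Cd209g a retained-intron transcript, which sets the gene's start at 4134098, begins upstream and covers the stretch.
Cd209f: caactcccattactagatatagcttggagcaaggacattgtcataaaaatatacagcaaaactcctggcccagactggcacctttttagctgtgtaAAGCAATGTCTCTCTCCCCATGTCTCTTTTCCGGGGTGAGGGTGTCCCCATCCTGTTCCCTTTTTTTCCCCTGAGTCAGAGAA
Cd209g: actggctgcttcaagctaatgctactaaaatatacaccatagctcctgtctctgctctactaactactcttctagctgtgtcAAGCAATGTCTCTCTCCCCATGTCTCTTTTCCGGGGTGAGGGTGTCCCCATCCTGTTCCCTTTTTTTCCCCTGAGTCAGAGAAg

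The shared run ends at or beside the start of the coding transcript and holds TTCCGG, a core of sites bound by ETS factors, and TGAGTCA, the classical AP-1 site. Searched on both strands of the windows, TGAGTCA was present in Cd209f and Cd209g and in none of the other CD209 genes, and in 5.20% of 32851 mouse windows of the same length. TTCCGG was present in 5 of 7 CD209 windows (Cd209a, Cd209b, Cd209e, Cd209f and Cd209g) and in 14.9% of all windows. Other motifs were searched too. TATAAA was in 3 of 7 CD209 windows (Cd209a, Cd209f and Cd209g) and in 13.6% of all windows. AGGTCA, a half-site of LXR and PPAR receptors, was in 1 of 7 (Cd209e) and in 16.3% of all. The PU.1-type GAGGAAGT, the MAF half-site TGCTGAC and the E-box CACGTG were in 0 of 7. The motifs were chosen after the sequences had been seen, and a match describes letters only. Cd209a and Cd209b are shown for comparison, with TTCCGG in capitals, at chr8:3748985-3749234 and chr8:3926842-3927091, both on the minus strand.
Cd209a: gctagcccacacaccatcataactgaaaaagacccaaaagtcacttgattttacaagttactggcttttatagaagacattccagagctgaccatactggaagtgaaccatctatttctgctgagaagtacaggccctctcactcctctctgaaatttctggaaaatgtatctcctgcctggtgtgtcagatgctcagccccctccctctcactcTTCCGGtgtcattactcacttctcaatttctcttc
Cd209b: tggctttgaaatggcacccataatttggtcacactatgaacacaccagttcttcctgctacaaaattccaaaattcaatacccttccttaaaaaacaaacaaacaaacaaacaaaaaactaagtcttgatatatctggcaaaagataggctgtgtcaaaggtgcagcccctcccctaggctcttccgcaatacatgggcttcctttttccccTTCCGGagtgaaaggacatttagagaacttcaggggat

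The LFD library held 7356278 unique molecular identifiers (UMIs, each a captured transcript counted once) over 1113 barcodes, and the HFD library 8412325 over 1144 barcodes. No barcode was shared between them. Barcodes with at least 200 genes, 1057 on LFD and 1117 on HFD, were called macrophages when C1qa, C1qb and C1qc, the chains of complement C1q, summed to at least 10 UMIs. This gave 238 macrophages on LFD and 337 on HFD. All 8 genes of a macrophage marker list, among them Adgre1, Csf1r and Mertk, were found in at least 10% of these cells in both libraries. Macrophages were split by the sum of Timd4 (a receptor for phosphatidylserine), Ccl24 (a chemokine) and Ednrb (an endothelin receptor) into Timd4-high cells with at least 3 UMIs and Timd4-low cells. The name stands for the sum, since Timd4 itself was seen in 39.8% of Timd4-high cells on LFD, Ccl24 in 98.5% and Ednrb in 85.2%. On HFD the shares were 27.2%, 79.8% and 93.0%, so the genes by which cells passed the gate differed between libraries. Timd4-high cells were 196 of the macrophages on LFD and 114 on HFD, and Timd4-low cells 42 and 223. With Ednrb left out of the sum, 181 cells on LFD and 64 on HFD were Timd4-high. Antigen-presenting cells had at least 20 UMIs of the class II genes H2-Aa, H2-Ab1 and H2-Eb1 and a C1q sum under 10, with 63 cells on LFD and 116 on HFD. This gate also holds B cells, since 17 of its cells on LFD and 5 on HFD had at least 2 UMIs of Cd79a, Cd79b and Ms4a1.

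In these cells 4 of the 5 members had over 95% of their UMIs in macrophages, and Cd209a was shared with antigen-presenting cells. Macrophages held 98.8% of Cd209b UMIs, 95.9% of Cd209d UMIs, 99.0% of Cd209f UMIs and 98.6% of Cd209g UMIs on LFD. On HFD the shares were 99.1, 96.3, 99.6 and 99.4%. Of Cd209a UMIs, macrophages held 69.4% on LFD and 56.7% on HFD, and antigen-presenting cells 27.8% and 42.5%. Cells with fibroblast, endothelial or T and NK cell genes gave the background. The highest value among them was 3.15 CPM (UMIs of the gene per 1000000 UMIs of the class) for Cd209f in 124 endothelial cells on LFD, with a 95% Poisson interval of 0.649 to 9.20. In the 79 and 35 cells with T and NK genes no member had a UMI, which allows up to 12.3 CPM on LFD and 39.6 CPM on HFD, at medians of 2632 and 1946 UMIs per cell. Barcodes with none of these gene groups, or with several, were left out of this background. On LFD 175 such barcodes, with a median of 1201 UMIs, had 16.6 CPM of Cd209f and 14.1 CPM of Cd209d. They had 12.8 CPM of Cd209a, 10.2 CPM of Cd209g and 3.84 CPM of Cd209b.

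**Figure D1:**
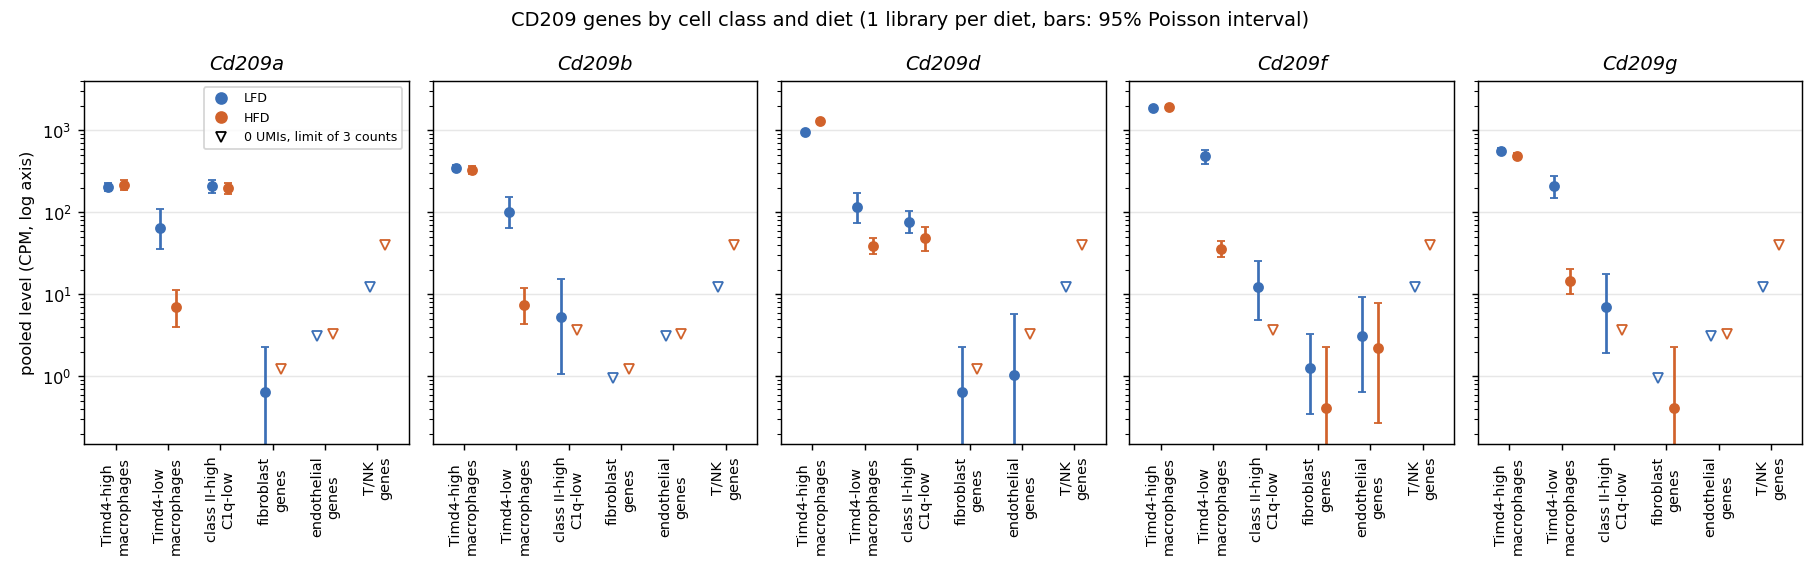
Pooled level of each CD209 gene in CPM (log axis) in 6 classes of cells, LFD in blue and HFD in orange, with the 95% Poisson interval as bars and open triangles at the limit that 0 UMIs allow. All 5 genes are highest or level with the highest in Timd4-high macrophages, and Cd209a is as high in the class II-high C1q-low cells.

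In all macrophages, each member was more than 2-fold lower on HFD. Cd209a had 186 CPM on LFD and 66.6 CPM on HFD, a ratio of 0.357 (95% interval 0.298 to 0.427), and was seen in 120 of 238 and 71 of 337 macrophages. Cd209b had 317 and 100.1 CPM, a ratio of 0.316 (0.274 to 0.364). Cd209d had 833 and 397 CPM, a ratio of 0.476 (0.441 to 0.515). The smallest decline was that of Cd209d, and its interval reaches past 2-fold.

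Cd209f, the member with most UMIs, had 1707 CPM on LFD and 580 CPM on HFD, a ratio of 0.340 (0.320 to 0.361). It was seen in 82.8% of LFD macrophages (197 of 238) and 30.9% of HFD macrophages (104 of 337), and in 1.06% of LFD and 0.328% of HFD cells with fibroblast genes, which had medians of 8472.5 and 7831 UMIs. Cd209g had 516 and 149 CPM, a ratio of 0.289 (0.258 to 0.324), and stood 62nd from the lowest of 7561 genes with at least 50 UMIs. Thus 5 of 5 members were at least 2-fold lower, beside 5.61% of all genes tested, and 0 of 5 were at least 2-fold higher, beside 4.64%. The count was 4 of 5 with cells thinned to 1000 UMIs and as a mean over cells, where the log2 ratio of Cd209d was -0.80 and -0.79. The median log2 ratio of the members was -1.56, beside -0.03 over all genes. Depth was similar, with medians of 6393 and 6997 UMIs per macrophage, and when each cell was thinned to 1000 UMIs, Cd209f was seen in 66.1% and 23.5% of macrophages.

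Within Timd4-high macrophages the pooled levels were close on both diets for Cd209a, Cd209b and Cd209f. Cd209a had 205 CPM on LFD and 216 CPM on HFD, a ratio of 1.05 (0.872 to 1.26). Cd209b had 351 and 332 CPM, a ratio of 0.947 (0.818 to 1.10). Cd209f had 1896 and 1941 CPM, a ratio of 1.02 (0.963 to 1.09). These intervals hold 1 and leave out a 2-fold change in either direction, for counting error alone.

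Cd209g was slightly lower in Timd4-high macrophages on HFD, 486 against 564 CPM, with a ratio of 0.862 (0.766 to 0.970). With Ednrb left out of the gate, the log2 ratio of Cd209g went from -0.21 to 0.019, so its direction depended on that gene. Cd209d was the one member whose interval lay above 1 in Timd4-high cells, with 1292 against 944 CPM and a ratio of 1.37 (1.26 to 1.48). Its log2 ratio lay between 0.36 and 0.55 under 8 alternatives, which include other limits on the sum, Ednrb left out, thinning and removal of the highest cell. Over all 5 members the 40 alternatives in this class ran from -0.57 to 0.55, with 17 below 0 and 23 above. Cd209d was seen in 88.8% of Timd4-high cells on LFD and 78.9% on HFD, and after thinning in 55.9% and 62.3%. Cd209g was seen in 83.2% and 70.2%, and after thinning in 37.4% and 28.1%. Among Timd4-high cells without Cd9, the intervals of Cd209a (1.22, 1.01 to 1.48) and Cd209f (1.13, 1.06 to 1.20) also lay above 1. None of 5 members differed 2-fold in Timd4-high cells, beside 3.15% of genes tested.

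In Timd4-low macrophages the members were lower than in Timd4-high cells on LFD and lower again on HFD, where Cd209f was still above its 2.20 CPM in endothelial cells. Cd209f had 481 CPM on LFD and 36.0 CPM on HFD, a ratio of 0.0749 (0.0553 to 0.101). Cd209g had 208 and 14.5 CPM, a ratio of 0.0696 (0.0430 to 0.111). Cd209a had 64.8 and 7.03 CPM (0.108, 0.0496 to 0.240), from 14 and 16 UMIs.

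Cd209b had 102 and 7.47 CPM in these cells (0.0734, 0.0366 to 0.145), from 22 and 17 UMIs. Cd209d was the least different, with 116 and 39.1 CPM and a ratio of 0.338 (0.215 to 0.550). Its UMIs lay in 13 of 42 Timd4-low cells on LFD (31.0%) and 12 of 223 on HFD (5.38%). The 3 members with at least 50 UMIs over both libraries, Cd209d, Cd209f and Cd209g, were all at least 2-fold lower, beside 8.13% of genes tested. Cd9-positive cells were 118 of 223 Timd4-low cells on HFD and 2 of 42 on LFD, and without them the ratio was 0.994 (0.630 to 1.62) for Cd209d, 0.158 for Cd209f and 0.161 for Cd209g. Cd209a and Cd209b were below that minimum. Without Ednrb in the gate only 2 of 5 members were 2-fold lower in Timd4-low cells, and the ratios came closer to 1, with log2 values from -1.73 for Cd209g to -0.22 for Cd209d.

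**Figure D2:**
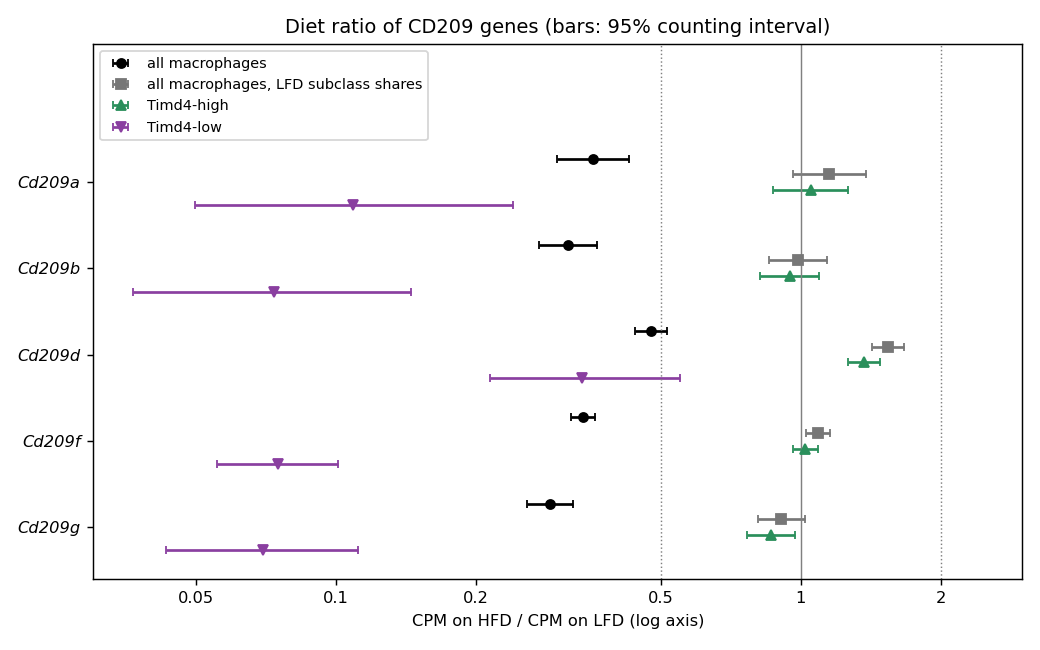
Ratio of CPM on HFD to CPM on LFD (log axis) for each CD209 gene in all macrophages, in all macrophages weighted to the LFD shares of 4 subclasses, and in Timd4-high and Timd4-low cells. Bars are 95% counting intervals and dotted lines mark 2-fold. Every ratio in all macrophages lies between 0.289 and 0.476, while the weighted ratios lie between 0.909 and 1.54.

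The 2 libraries differed in how many macrophages fell into each subclass. Timd4-high cells were 82.4% (76.9 to 87.0) of macrophages on LFD and 33.8% (28.8 to 39.2) on HFD. Cells with a Cd9 UMI, a tetraspanin gene that is high in lipid-laden macrophages, were 3.78% and 38.9%. Timd4-low cells with Cd9 carried 1.99% of macrophage UMIs on LFD and 51.5% on HFD.

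The level of each member was therefore also computed with the subclass shares of the LFD library applied to both. Weighted in this way, the ratio of HFD to LFD was 1.15 (0.962 to 1.38) for Cd209a, 0.986 (0.854 to 1.14) for Cd209b and 1.09 (1.03 to 1.16) for Cd209f. It was 0.909 (0.809 to 1.02) for Cd209g and 1.54 (1.43 to 1.67) for Cd209d. The pooled ratios of 0.289 to 0.476 were thus not seen at the subclass shares of the LFD library. With the HFD shares as weights the ratios were 0.956 for Cd209a, 0.894 for Cd209b, 1.46 for Cd209d, 0.959 for Cd209f and 0.756 for Cd209g. Most of that weight lies on a subclass at 0 member UMIs on LFD. With these zeros read as 3 counts, a setting chosen after seeing the data, the ratios were 0.566 for Cd209a, 0.626 for Cd209b, 1.24 for Cd209d, 0.888 for Cd209f and 0.608 for Cd209g. Whether cells changed state or were replaced, and whether dissociation recovered the subclasses equally, was not tested.

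On HFD the level of every member was higher in each successive band of the sum of Timd4, Ccl24 and Ednrb, and on LFD that was so for Cd209b, Cd209d and Cd209f. On HFD, Cd209f had 17.6 CPM in the 181 macrophages with none of these UMIs, 141 CPM at 1 to 2 UMIs and 1046 CPM at 3 to 5. It reached 1443 CPM at 6 to 10 UMIs and 2841 CPM at 11 or more. On LFD the same bands gave 454, 492, 1005, 1722 and 2253 CPM. Cells at the bottom thus differed between libraries (454 against 17.6 CPM in 17 and 181 cells). On LFD Cd209g went from 303 CPM at 0 UMIs to 172 CPM at 1 to 2 and 631 CPM at 11 or more, and Cd209a had 67.3, 63.8, 93.2, 238 and 225 CPM. Cd209d was higher on HFD in every band that has at least 1 UMI, from 211 against 121 CPM at 1 to 2 UMIs to 1785 against 1134 CPM at 11 or more.

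**Figure D3:**
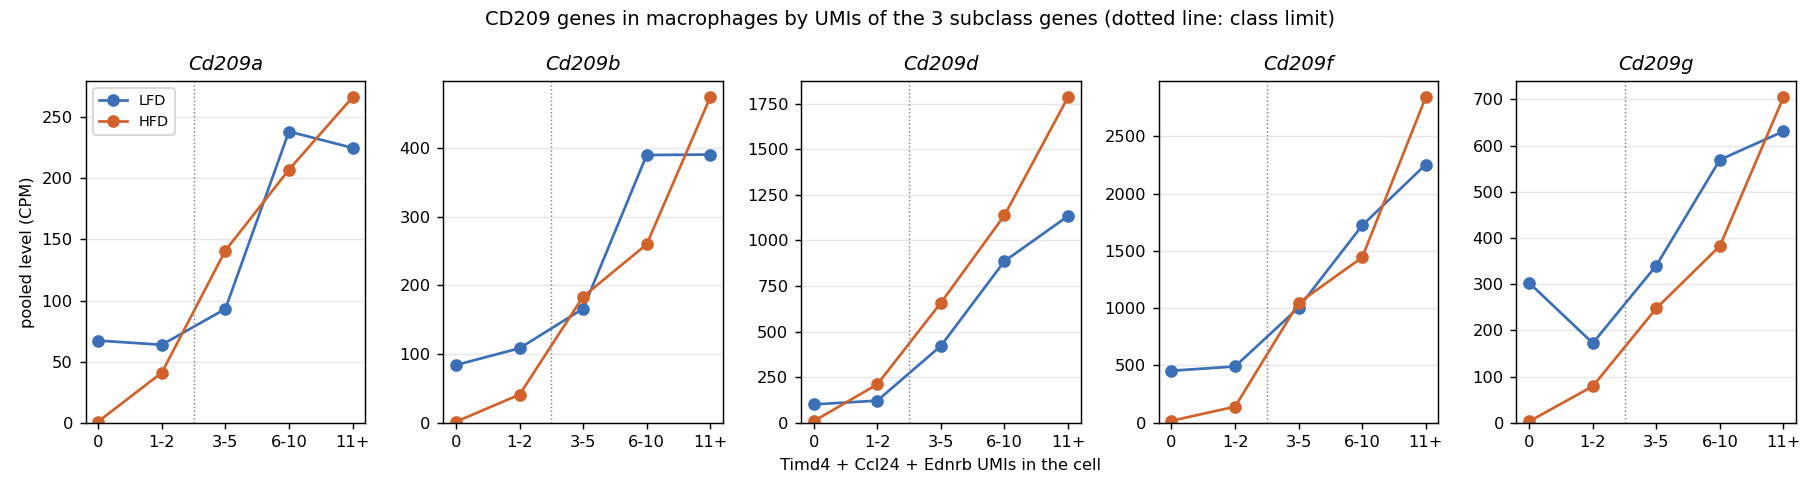
Pooled CPM of each CD209 gene in macrophages by the UMIs of Timd4, Ccl24 and Ednrb in the cell, LFD in blue and HFD in orange, with the class limit dotted. On HFD all 5 genes are higher in each successive band, on LFD Cd209a and Cd209g dip between the first bands and Cd209a also at the last, and Cd209d is higher on HFD in each band above 0.

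Timd4-high exceeded Timd4-low cells in both libraries. On LFD the ratio was 3.17 for Cd209a (1.86 to 5.86), 3.44 for Cd209b (2.25 to 5.55), 8.16 for Cd209d (5.50 to 12.7), 3.94 for Cd209f (3.24 to 4.84) and 2.71 for Cd209g (2.0 to 3.74). All 5 were at least 2-fold higher, beside 7.17% of genes tested. Under the limits on genes and mitochondrial UMIs that the study's methods give, and also with cells thinned to 1000 UMIs, 3 of 5 passed 2-fold on LFD. On HFD the ratios were 30.7 for Cd209a, 44.5 for Cd209b, 33.0 for Cd209d, 53.9 for Cd209f and 33.5 for Cd209g. Again 5 of 5 passed 2-fold, beside 7.54%, and among 6274 genes ranked from the highest they stood 10th, 3rd, 7th, 2nd and 6th. Among cells without Cd9 alone, 101 Timd4-high and 105 Timd4-low on HFD, the ratios were smaller, at 10.4 (6.23 to 18.6) for Cd209a, 17.0 (9.95 to 31.5) for Cd209b, 11.6 (9.30 to 14.6) for Cd209d, 25.1 (19.3 to 33.4) for Cd209f and 14.4 (9.61 to 22.5) for Cd209g. On LFD they were 2.41 to 7.33. This setting was also chosen after seeing the data.

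Macrophages with a Cd9 UMI had less of each member on HFD. There the 131 cells with Cd9 had 92.4 CPM of Cd209f against 1237 CPM in the 206 without, a ratio of 0.0747 (0.0634 to 0.0876). For Cd209a the ratio was 0.0291 (0.0124 to 0.0584). A single cell held 54 of the 169 Cd209f UMIs in the cells with Cd9, and 1 cell 21 of the 36 Cd209b UMIs. On LFD only 9 macrophages had Cd9, with ratios from 0.126 to 0.404. Of these, 4 were left without the doublets called by Scrublet, and 4 without barcodes rich in fibroblast or endothelial genes. All 5 members stayed 2-fold lower in both cases, but under the study's limits, which leave 1 such cell, Cd209a, Cd209b and Cd209d went the other way. Among Timd4-high cells alone the contrast was smaller, and on LFD that of Cd209f was not seen without such barcodes. All Timd4-high cells gave Cd209f at 760 against 2251 CPM on HFD (0.338, 0.283 to 0.401) and 676 against 1997 CPM on LFD (0.339, 0.264 to 0.428). Without the called doublets 2 cells with Cd9 were left on LFD and 9 on HFD, and the Cd209f ratio was 1.16 (0.799 to 1.62) on LFD and 0.626 (0.522 to 0.745) on HFD. Without the barcodes rich in fibroblast or endothelial genes it was 1.16 and 0.777 (0.648 to 0.925). The other members differed among themselves there. On HFD the ratio was then 1.12 (0.755 to 1.61) for Cd209b and 0.784 (0.539 to 1.11) for Cd209g, but 0.291 (0.106 to 0.646) for Cd209a and 0.283 (0.196 to 0.396) for Cd209d. On LFD, from 2 cells with Cd9, it ran from 0.362 (0.0437 to 1.31) for Cd209b to 1.29 (0.348 to 3.33) for Cd209a. The Timd4-high cells with Cd9 were only 7 on LFD and 13 on HFD, and they had medians of 13999 and 11596 UMIs, more than the 6520 and 6771 of those without.

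Most Timd4-high cells carried several members at once. On LFD 67 of 196 (34.2%) and on HFD 35 of 114 (30.7%) had a UMI of all 5. At the other end, 9 of 196 on LFD (4.59%, 2.12 to 8.54) and 22 of 114 on HFD (19.3%, 12.5 to 27.7) had none, at median depths of 7994 and 7124.5 UMIs. After thinning these shares were 14.4% and 25.4%. In Timd4-low cells 13 of 42 on LFD and 195 of 223 on HFD had none.

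**Figure D4:**
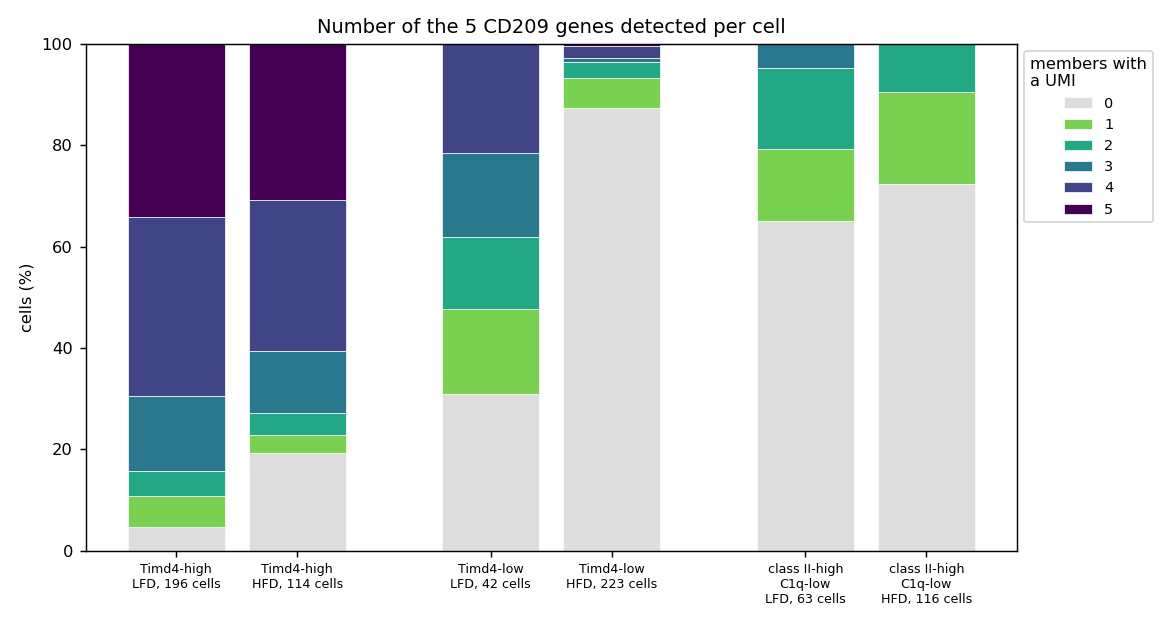
Share of cells (%) by the number of the 5 CD209 genes with at least 1 UMI, in 3 classes on each diet. On HFD 87.4% of Timd4-low macrophages have none, and none of the class II-high C1q-low cells has more than 3 on LFD or more than 2 on HFD.

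The Timd4-high cells without any member differed from the rest in other genes, although they were chosen here by the members themselves. Lyve1, a hyaluronan receptor of resident macrophages, was at 75.8 CPM in the 9 such cells on LFD and 994 CPM in the 187 others, and at 313 and 1103 CPM on HFD. Ccr2, the receptor of monocyte recruitment, was at 1604 against 98.8 CPM on LFD and 259 against 1.46 CPM on HFD. Fibronectin (Fn1) was at 4004 against 152 CPM and at 1492 against 4.38 CPM. On HFD, 7 of the 22 cells had a Cd9 UMI, and 4 of the 22 had at least 10 UMIs of fibroblast or endothelial genes, against 1 of 92 with a member. The endothelial list summed to 2233 CPM in those 22 cells and 23.3 CPM in the others. On LFD it was the reverse, with 0 of 9 cells without a member and 8 of 187 with one having such UMIs, and 12.6 against 296 CPM of the endothelial list. Ednrb, which is in the gate, was at 101 CPM in cells without a member and 746 CPM in the others on LFD, and at 478 and 925 CPM on HFD. Of the gate genes, the 9 LFD cells without a member had 0 UMIs of Timd4, 56 of Ccl24 and 8 of Ednrb. With all macrophages rich in fibroblast or endothelial genes left out, 8 on LFD and 16 on HFD, the Timd4-high ratio of Cd209d by diet was 0.52 on the log2 scale, against 0.45 with them.

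From cell to cell, Cd209f and Cd209g were the most alike pair. Across Timd4-high cells, Pearson's r of log UMIs per 10000 was 0.73 on LFD (196 cells) and 0.85 on HFD (114 cells). Cd209d followed Cd209f at 0.57 and 0.78, and Cd209a followed Cd209d at 0.49 and 0.68. The pairs with Cd209b ranged from 0.24 to 0.36 on LFD and from 0.28 to 0.43 on HFD, and Cd209a with Cd209g lay within both ranges, at 0.33 and 0.42. These values describe cells of 1 library each, which share depth and free RNA.

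**Figure D5:**
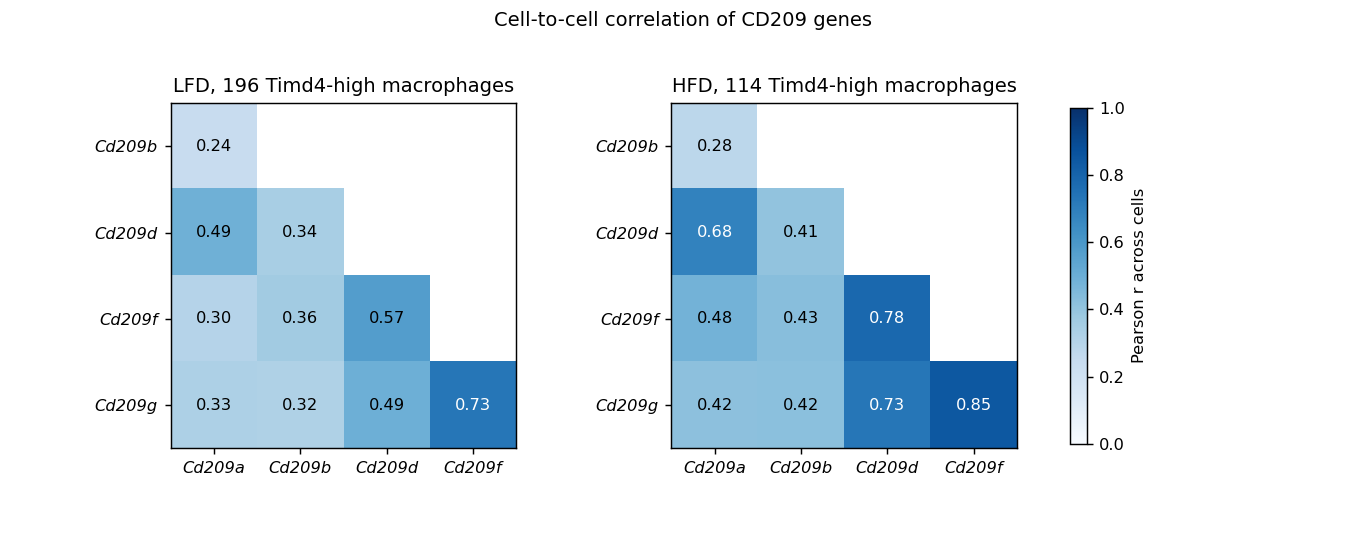
Pearson's r across Timd4-high macrophages for each pair of CD209 genes, from log(1 + UMIs per 10000), LFD on the left and HFD on the right. Cd209f with Cd209g has the highest value in both libraries (0.73 and 0.85) and Cd209a with Cd209b the lowest (0.24 and 0.28).

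Detection in the same cell was also frequent. Of the Timd4-high cells with Cd209g on LFD, 161 of 163 (98.8%) also had Cd209f, and of the 33 without Cd209g, 11 (33.3%) did. Of those with Cd209a on HFD, 63 of 63 had Cd209d, and of the 51 without Cd209a, 27 did. In cells thinned to 1000 UMIs, 82.2% of LFD Timd4-high cells with Cd209g and 62.3% of those without had Cd209f, so part of that contrast moves with depth. For Cd209a on HFD, 17 of 17 thinned cells with it and 55.7% of those without had Cd209d, close to the values before thinning.

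The genes whose values were most like those of the members across all macrophages included other members for Cd209b, Cd209d, Cd209f and Cd209g. For Cd209f the first 5 were Cd209g, Cd209d, Lyve1, Folr2 (a folate receptor) and Fcgrt (the neonatal Fc receptor), with mean r over both libraries from 0.80 to 0.62. For Cd209d they were Cd209f, Cd209g, Lyve1, Cd209a and the complement gene C4b, from 0.74 to 0.65. For Cd209g they were Cd209f, Cd209d, Folr2, Wfdc17 and C4b, from 0.80 to 0.54. For Cd209b the first 3 were Cd209f, Cd209d and Cd209g, from 0.50 to 0.47. These were ranked over 6676 genes. Across Timd4-high cells alone, over 4704 genes, Lyve1 was not among the first 10 for any member. There Fcgrt was the first gene outside the family for Cd209d, Cd209f and Cd209g.

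A resident macrophage list of 12 genes (Lyve1, Folr2, Cd163, Mrc1 and others, 11 of them in the gene list) was, as a sum, also lower on HFD. Its summed level was 13690 CPM in LFD macrophages and 5877 CPM in HFD macrophages, and 14525 and 13157 CPM in Timd4-high cells. In Timd4-low cells it was 8302 and 2969 CPM, where Cd209a, Cd209b, Cd209f and Cd209g differed more by diet. A lipid-associated list of 8 genes (Trem2, Spp1, Gpnmb, Lpl and others) went the other way, from 2344 to 11732 CPM in all macrophages, and stood at 15236 CPM in Timd4-low cells on HFD. The median cell had 1949 CPM of it on LFD and 3271 CPM on HFD. The pooled sums on HFD lay above the upper quartile over cells, which was 8597 CPM in all macrophages and 12816 CPM in Timd4-low cells (median 5561 CPM).

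In antigen-presenting cells Cd209a was as high as in Timd4-high macrophages, while Cd209b, Cd209f and Cd209g were near the limit of detection. Cd209a had 210 CPM on LFD, from 120 UMIs in 15 of 63 cells, and 196 CPM on HFD, from 159 UMIs in 31 of 116 cells. The diet ratio was 0.934 (0.732 to 1.19). Against Timd4-high macrophages the ratio was 1.02 (0.820 to 1.27) on LFD and 0.910 (0.733 to 1.13) on HFD. Against all macrophages it was 1.13 (0.904 to 1.40) on LFD and 2.95 (2.38 to 3.64) on HFD, as the level in macrophages was lower there. Under the study's limits on cells the log2 ratio to all macrophages was 1.29 on LFD and 2.50 on HFD, against 0.17 and 1.56 for all cells.

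Cd209a was concentrated in a few of these cells. The 6 highest of 63 cells on LFD held 76.7% of its UMIs and the 12 highest of 116 on HFD held 72.3%. The highest cell had 24 UMIs on LFD and 16 on HFD. Cells with Cd209a had no C1q UMI in 11 of 15 cases on LFD and 26 of 31 on HFD, and those without Cd209a in 35 of 48 and 60 of 85. In each library 1 cell with Cd209a had a C1q sum of 5 to 9, just under the macrophage gate.

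Cd209d was the second member seen in antigen-presenting cells, at 77.0 CPM on LFD (44 UMIs in 15 cells) and 48.1 CPM on HFD (39 UMIs in 12 cells). It was in 10 of the 15 cells with Cd209a on LFD and 5 of the 48 without, and on HFD in 11 of 31 and 1 of 85. Cd209b, Cd209f and Cd209g had 3, 7 and 4 UMIs on LFD and none on HFD, 0 of 116 cells, which at 3 counts allows up to 3.70 CPM or a share of cells with a UMI of up to 2.59%. None of the cells with Cd209a had Cd209f or Cd209g in either library.

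The cells with Cd209a differed from those without in some dendritic cell genes and not in others. Mgl2, a C-type lectin known from type 2 conventional dendritic cells, was at 997 CPM in the LFD cells with Cd209a and 44.8 CPM in those without, and on HFD at 1463 and 128 CPM. Clec10a was at 224 and 30.7 CPM on LFD and 269 and 38.1 CPM on HFD. Ccr2 was at 882 and 432 CPM, and at 817 and 588 CPM. Xcr1, a marker of type 1 conventional dendritic cells, had no UMI in the cells with Cd209a in either library, and 59.0 and 53.7 CPM in those without. Clec9a, another gene of that type, was at 20.3 and 42.4 CPM with and without Cd209a on LFD and at 8.55 and 64.1 CPM on HFD. Flt3 was at 20.3 and 37.7 CPM and at 51.3 and 41.6 CPM, and Sirpa at 142 and 111 CPM and at 192 and 185 CPM. Ccr7 was at 251 and 30.7 CPM on LFD and at 17.1 and 98.8 CPM on HFD, but cells with at least 5 Cd209a UMIs had 10.7 CPM on LFD and 17.8 CPM on HFD. The B cell gene Cd79a had none either, and the cells with B cell genes held 0 UMIs of Cd209a. All of these, 17 on LFD and 5 on HFD, were thus among the 48 and 85 cells without Cd209a in the contrasts above.

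Other C-type lectin receptors showed mixed differences in macrophages. Of a list of 24, 23 were in the gene list and 15 had at least 50 UMIs. On HFD 3 were at least 2-fold lower, Clec10a (0.367, 0.340 to 0.397), the scavenger collectin Colec12 (0.417, 0.314 to 0.553) and the mannose receptor Mrc1 (0.477, 0.453 to 0.503), beside 5.61% of all genes. Clec4d was the 1 higher, at 59.6 against 11.8 CPM (5.06, 3.15 to 8.58), beside 4.64% of all genes. The list median was -0.18 on the log2 scale, beside -0.03 over all genes. In Timd4-high cells the ratios were 0.771 for Clec10a, 1.06 for Colec12, 0.980 for Mrc1 and 1.62 for Clec4d. Of 10 genes that signal below such receptors, among them Lsp1 and Syk, 9 were tested, Malt1 was at least 2-fold higher (2.11, 1.39 to 3.32) and none was lower, beside the same shares of all genes.

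Cd209c and Cd209e were close to the limit in macrophages. Cd209c had 9 UMIs on LFD and 2 on HFD, and Cd209e had 14 and 20. Of the Cd209e UMIs on HFD, 19 lay in Timd4-high cells.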

How the data were processed

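Stromal vascular cells of epididymal fat were sequenced in droplets, 1 library per diet. The authors deposited unnormalized UMI counts, made with Cell Ranger on mm10 for every gene in every barcode (the file header names version 3.0.2, while the paper's methods name another version). No replicates exist, so no test was made.

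Classes were set by summed UMIs as given above. A comparison class had at least 10 UMIs of fibroblast or endothelial genes or 3 of T and NK genes. CPM is the UMIs of a gene over all UMIs of the class. Shares have exact (Clopper-Pearson) binomial intervals, and ratios exact conditional binomial intervals at 95%. Those of the weighted ratios are approximate. A count of 0 was read as up to 3 counts. Counts at 2-fold used genes with at least 50 UMIs over both groups, with 0.5 UMIs added. Thinning drew 1000 UMIs per cell with seed 209 and left out shallower cells. Doublets were kept, and in an alternative those called by Scrublet were left out (21 on LFD, 26 on HFD).

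Named genes were the members, list genes past 2-fold, and the 5 genes most like each member, except that part of the ranking for Cd209b is not reported here. Cd209a was to be ranked in antigen-presenting cells, where fewer than 20 LFD cells had it, and its ranking in macrophages, which the rule did not ask for, is not given. Genes of the marker lists named for cells with and without a member or Cd209a were chosen after their values were seen. The members and lists were chosen with earlier results of these data known. Ratios were tried on simulated Poisson counts drawn from pooled sums, the model that the intervals assume. Clustering of UMIs within cells was not simulated, so this does not show that the intervals hold for it. Positions came from GENCODE M21, matched by gene ID. Python 3.11.15, scipy 1.17.1, pandas 2.3.3 and scanpy 1.11.5 were used.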

Additional observations from a re-analysis of the deposited data

Results flagged for a closer look

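Cd209d went in opposite directions by diet in the macrophage subclasses. Its HFD over LFD ratio was 1.37 in Timd4-high cells (1.26 to 1.48) and 0.338 in Timd4-low cells (0.215 to 0.550), from 1 library per diet, so the difference was not tested. Among Timd4-low cells without Cd9 its ratio was 0.994 (0.630 to 1.62), where those of the other 4 members lay between 0.158 and 0.330. The level on HFD rests on few cells. Of all Timd4-low cells, Cd209d was seen in 13 of 42 on LFD and 12 of 223 on HFD, where 1 cell held 17 of its 89 UMIs.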

How the results depend on the processing

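Of 366 alternative values for 59 results, 245 stayed within the reported error, 115 moved and 6 reversed. Of 297 log2 ratios, 284 kept their sign, and a change of sign counted as reversed only where the reported interval left out 0. Alternatives without Ednrb, without mixed barcodes, with zeros at 3 counts, for Cd9 without doublets, for Timd4-high against Timd4-low cells without Cd9, or within Timd4-high and Timd4-low cells by diet were chosen after seeing the data. All 45 log2 diet ratios in macrophages stayed below 0 (-2.56 to -0.79), and all 45 ratios of Timd4-high to Timd4-low cells on each diet above 0. No paired analysis was possible because there is 1 library per diet and no test. The cause of the shifts below was not tested.

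Log2 diet ratios in macrophages moved with a mean over cells (Cd209a -1.05, Cd209b -1.37, Cd209d -0.79, Cd209f -1.28, Cd209g -1.54), under the study's limits, which keep 49 and 75 macrophages (Cd209b -2.56, Cd209d -1.55, Cd209f -2.14, Cd209g -2.44), and with thinning (Cd209d -0.80, Cd209f -1.17). The subclass-weighted ratios, with HFD shares as weights, were -0.065 for Cd209a and -0.060 for Cd209f, which both changed sign, and -0.40 for Cd209g. There 51.5% of the weight lies on a subclass with 2 LFD cells and 0 member UMIs, and with these zeros read as 3 counts the values were -0.82 for Cd209a, -0.68 for Cd209b, 0.32 for Cd209d, -0.17 for Cd209f and -0.72 for Cd209g. Without Ednrb in the gate, Cd209g in Timd4-high cells reversed to 0.019, and 2 members were 2-fold lower in Timd4-low cells on HFD. Under the study's limits the LFD ratio with against without Cd9 reversed for Cd209a (0.70), Cd209b (0.47) and Cd209d (0.50), and 1 member was 2-fold lower. Members 2-fold higher in Timd4-high cells on LFD numbered 3 under the study's limits and 3 with thinning. Cd209a in antigen-presenting cells over macrophages was 1.29 on LFD and 2.50 on HFD under the study's limits and 1.18 on HFD as a mean over cells, and its diet ratio was -0.51 under those limits. Thinned, 61.0% of LFD and 77.2% of HFD macrophages with Cd209f had Cd209d, and 46.8% and 46.8% had Cd209g. With a minimum of 20 UMIs, 2 lectin list genes were higher on HFD.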
